A study of Mus musculus with 12 samples.

Results

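H3K27me3 was compared at X-linked genes between epiblast stem cells that lack SmcHD1 and their wild-type counterparts. The members were all genes with a deposited H3K27me3 value in both genotypes, which were 708 of the 952 X-linked genes listed. EpiSCs are pluripotent cells grown from the epiblast of the postimplantation embryo, here taken at embryonic day 6.5. The MD1 cells were Smchd1 MD1/MD1 and Xist deltaA/+, and the WT cells were Smchd1 +/+ and Xist deltaA/+. Both were female and came from a cross of C57BL6/J with F1 animals of JF1 and C57BL6/J. The WT cells therefore carry the same Xist mutation as the MD1 cells. Each genotype had 1 H3K27me3 library and 1 input library, so no p-value was possible and no difference has a replicate check. Smchd1 is autosomal, and only X-linked genes were analysed here, so the genotype labels and the cell type could not be checked against expression or deletion of a marker gene. The series also holds H3K9me3 from the same cells and both marks from embryonic fibroblasts (MEFs), for 12 samples in all. The MEFs were from a later embryonic day than the EpiSCs.

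H3K27me3 is the methylation mark that Polycomb repressive complex 2 places on histone H3 lysine 27, and it spreads over the inactive X of female mammals downstream of Xist RNA. Xist deltaA is an allele without the A repeat, the part of the RNA needed for silencing, so that the X with the intact allele becomes the inactive one. SmcHD1 is a noncanonical protein of the SMC family that is recruited to the inactive X and is needed to keep many of its genes silent. H3K9me3, which is read and written by heterochromatin proteins, marks other silent domains and on the inactive X lies in blocks that alternate with H3K27me3.

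The deposited values are log2 enrichments of ChIP over input per gene, where 0 is the level of the input and 1 is 2-fold over it. Each library carries 1 constant. Neither its origin nor which of the 2 X chromosomes the values describe is given in the sources used here, so the genes counted as below input hold for the values as deposited. Whole-number pairs that reproduce every value were recovered, as the smallest that do so. Over all genes with a value, their ChIP part summed to 1804080 in MD1 (736 genes, median 678) and 1560574 in WT (719 genes, median 466). The input part summed to 181233 in MD1 (median 85) and 182193 in WT (median 78). Intervals given below are 95% counting intervals from these pairs and cover counting error alone.

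H3K27me3 lay in a narrower band in MD1 EpiSCs than in WT EpiSCs. The median level was 4.09 in MD1 and 4.19 in WT, on the log2 scale, and the median change per gene was −0.069. The sign of that median depended on the scaling, since it was 0.034 with both libraries centred on all genes and 0.40 with both centred on the genes poor in H3K9me3. The interquartile range was 0.76 log2 units in MD1, between 3.57 and 4.33, and 1.75 in WT, between 2.91 and 4.66. The SD over genes was 1.07 in MD1 and 1.90 in WT. Levels between 3 and 5 were found for 590 genes in MD1 (83.3%) and for 478 genes in WT (67.5%). Across the 708 genes the MD1 and WT levels were correlated with Pearson's r of 0.502 and Spearman's rho of 0.428, given as a description since neighbouring genes are not independent.

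Few genes were without the mark in MD1. Below the input level were 15 genes in MD1 and 68 genes in WT, of which 10 were the same. Of the 68, 63 were at least 2-fold higher in MD1, and as a group the 68 had a median level of 2.71 in MD1 and −1.33 in WT. Over all genes, 161 were at least 2-fold higher in MD1 (22.7%) and 80 were at least 2-fold lower (11.3%). The counting interval also excluded 0 for 148 of the higher genes (20.9% of all) and for 72 of the lower genes (10.2% of all). Differences of at least 8-fold were found at 61 genes that were higher and 8 that were lower. The 2-fold lower genes made up 33.2% of the 2-fold calls with the values as deposited, and 17.0% once both libraries were centred on the genes poor in H3K9me3, which added 0.465 to every change.

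**Figure D1:**
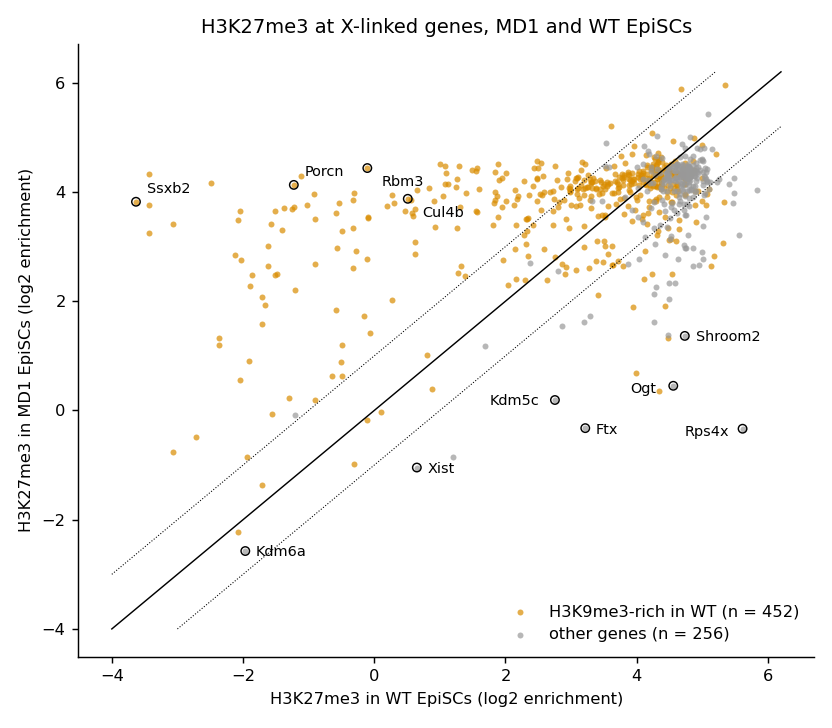
Each point is 1 of the 708 X-linked genes, with its H3K27me3 level in WT EpiSCs on the horizontal axis and in MD1 EpiSCs on the vertical axis, both as log2 enrichment over input; the solid line marks equal levels and the dotted lines a 2-fold difference. Points far above the line at the left are genes below the input in WT, such as Ssxb2 and Porcn, almost all of them H3K9me3-rich (orange), and points far below the line at the right include Ogt and Rps4x.

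Nearly all genes with higher H3K27me3 in MD1 EpiSCs carried H3K9me3 in WT EpiSCs. Of the 161, 159 were among the 452 of 708 genes with at least 2-fold H3K9me3 enrichment in WT, called H3K9me3-rich here. Both exceptions were outside that set, Ddx3x, an RNA helicase gene, and Gpr165, an orphan receptor gene. Within the rich set H3K27me3 had a median of 4.01 in MD1 and 3.48 in WT, and 29 of its genes were at least 2-fold lower in MD1. In the other 256 genes the median was 4.24 in MD1 and 4.70 in WT, with 2 genes at least 2-fold higher and 51 at least 2-fold lower.

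The relation was graded. Among the 44 genes whose WT H3K9me3 was lower than −1, the H3K27me3 median was 4.12 in MD1 and 4.65 in WT. For the 132 genes with WT H3K9me3 from 2 to 3 it was 4.11 in MD1 and 4.07 in WT. For the 192 genes from 3 to 4 it was 3.85 in MD1 and 2.32 in WT, with 115 genes at least 2-fold higher. At the 34 genes at or above 4 the median was 3.54 in MD1 and −0.22 in WT, and 28 were at least 2-fold higher. The MD1 medians of the 7 intervals thus spanned 3.54 to 4.26, and in both genotypes they were lowest at the genes with the most WT H3K9me3.

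Across genes Pearson's r between the H3K27me3 change and the WT H3K9me3 level of EpiSCs was 0.633 and Spearman's rho 0.728 (708 genes), and both measures use the WT input library. With the WT H3K9me3 level of MEFs, which uses none of the same libraries, the correlations were 0.515 and 0.487 (700 genes). Among the 135 genes that were H3K9me3-rich in WT MEFs, 82 had at least 2-fold higher H3K27me3 in MD1 EpiSCs, with a median of 3.54 in MD1 and 1.89 in WT. The change itself contains the WT level, so a gene that was low in WT had more room to be higher: the 236 genes lowest in WT had a median of 3.71 in MD1 and 1.89 in WT, and the 236 highest in WT had 4.26 in MD1 and 4.75 in WT.

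**Figure D2:**
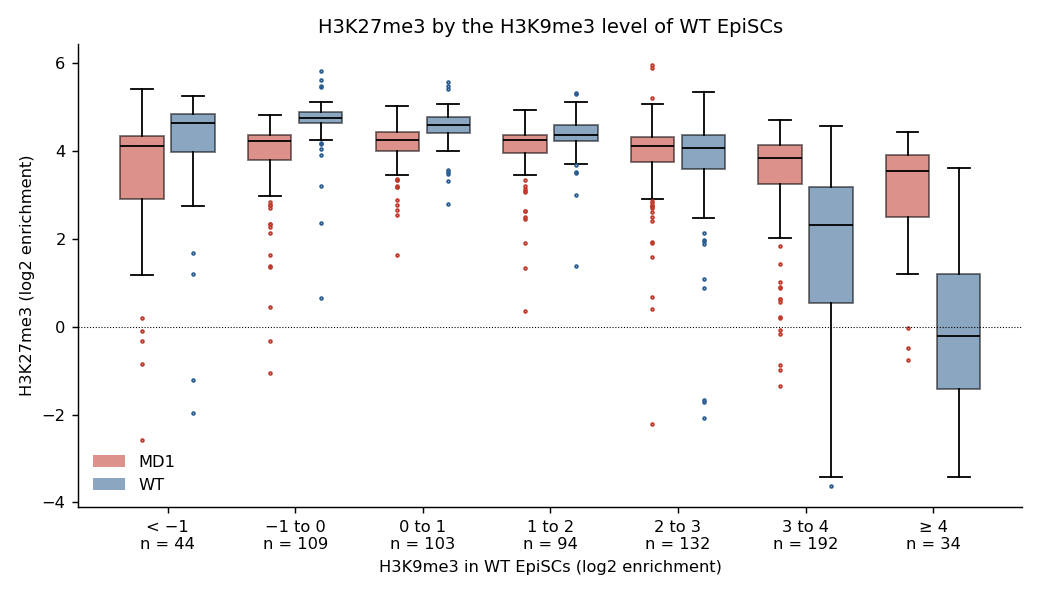
H3K27me3 levels (log2 enrichment over input) in MD1 EpiSCs (red, left) and WT EpiSCs (blue, right), for genes binned by their H3K9me3 level in WT EpiSCs; boxes span the quartiles, the line in each is the median, and dots are genes beyond the whiskers of matplotlib's standard box plot. Both genotypes are lowest in the bins from 3 upward, where the medians at or above 4 are 3.54 in MD1 and −0.22 in WT.

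Higher genes lay side by side along the chromosome. Of the 161, 114 fell into 10 runs of at least 5 consecutive measured genes, all at least 2-fold higher. Of the 80 lower genes, 13 fell into 2 such runs. In the interval from 20 to 30 Mb, 16 of 23 genes were higher and 0 lower, whereas from 90 to 100 Mb 1 of 71 was higher and 17 were lower, and from 160 to 170 Mb 0 of 37 were higher and 4 lower. From 0 to 10 Mb 30 of 65 genes were higher and 1 lower, and from 30 to 40 Mb 17 of 44 were higher and 0 lower. From 50 to 60 Mb 18 of 45 were higher and 1 lower. Some intervals were mixed: from 70 to 80 Mb 21 of 73 genes were higher and 16 lower, and from 100 to 110 Mb 19 of 58 were higher and 12 lower. Over all genes 22.7% were higher and 11.3% lower.

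The longest run held 22 genes from Hdac6 to B630019K06Rik (mm9, X, 7507248 to 8472090). Its median level was 3.67 in MD1 and −1.01 in WT. It opened with Hdac6, a cytoplasmic deacetylase gene, at 3.52 in MD1 and 2.34 in WT, and Gata1, which encodes an erythroid transcription factor, at 3.72 in MD1 and 1.95 in WT. Levels in WT were broadly lower along the run, while those in MD1 stayed between 2.85 and 4.44. Suv39h1, which encodes an H3K9 methyltransferase, had 2.86 in MD1 and 0.62 in WT. Was, the Wiskott-Aldrich syndrome gene, had 3.93 in MD1 and 1.05 in WT. Rbm3, a cold-induced RNA-binding protein gene that overlaps its antisense gene, had 4.44 in MD1 and −0.11 in WT. Porcn, whose product adds a lipid to Wnt ligands, had 4.13 in MD1 and −1.23 in WT, a change of 5.36 (4.25 to 6.47). The tRNA methyltransferase gene Ftsj1 differed by 5.16 (4.19 to 6.13) and the amino acid transporter gene Slc38a5 by 5.41 (4.22 to 6.61). The run ended in a cluster of Ssx genes. The next gene with a value in both genotypes, Lancl3, had 3.76 in MD1 and 3.14 in WT, a change of 0.62. Between the run and Lancl3 lay 4930402K13Rik, with −1.23 in WT on an input pair of 5 and no value in MD1. Where the low stretch of WT ended is therefore not fixed by these genes. On the other side Eras, a Ras family gene of embryonic stem cells, had a change of 0.80.

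The 6 measured Ssx genes, relatives of a human family of testis-expressed antigens, had a median of 3.54 in MD1 and −2.60 in WT, and all 6 were higher. They are near-identical copies, so reads may have been shared between them and their values are uncertain. Ssxb2 had 3.82 in MD1 and −3.63 in WT, a change of 7.45 (5.35 to 9.56) that rested on a WT ChIP pair of 2. The neighbouring predicted gene Gm6592 differed by 7.19 (4.25 to 10.14), with a WT pair of 1. Ssxb6 and Ssxb3 had levels of 2.52 and 2.55 in MD1 and no value in WT.

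A run of 21 genes stretched from Itm2a to Dach2 (X, 104592534 to 110949995), with a median of 3.84 in MD1 and 0.84 in WT. It held Brwd3, a bromodomain protein gene, with 2.64 in MD1 and −1.62 in WT, Hmgn5, a nucleosome-binding protein gene, with 2.98 in MD1 and −0.57 in WT, and the T-box gene Tbx22, with 4.14 in MD1 and 1.13 in WT. The 13-gene run from Cfp to Gm4907 (20502661 to 23484676) had a median of 4.19 in MD1 and 1.08 in WT. In it lay Wdr44, a Rab11-binding protein gene, with 2.75 in MD1 and −2.03 in WT, a change of 4.77 (4.30 to 5.24), and the zinc finger gene Zfp300, with a change of 4.95 (3.65 to 6.25). The 12-gene run from Cxx1a to Gm648 (50945666 to 53802783) had 3.07 in MD1 and 0.81 in WT, and was the most uneven of the 10 in MD1, with an interquartile range of 2.82.

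From Atp1b4 to Sh2d1a (35669299 to 39875252) an 11-gene run had a median of 3.97 in MD1 and 1.30 in WT. It included Cul4b, the scaffold of a ubiquitin ligase, with 3.88 in MD1 and 0.51 in WT, the caspase inhibitor gene Xiap, with 4.15 in MD1 and 1.08 in WT, and the cohesin subunit gene Stag2, with 4.11 in MD1 and 2.42 in WT. The uncharacterised gene 6030498E09Rik in the same run, long enough for a tight interval, had 3.71 in MD1 and −1.37 in WT, a change of 5.08 (4.76 to 5.40). The remaining 5 higher runs were Gm362 to 4930515L19Rik, 1700019B21Rik to Fmr1nb, Gm6890 to Fundc2, Pls3 to Prrg1 and Magea8 to Ptchd1, with medians between 3.49 and 4.29 in MD1 and between −1.40 and 1.84 in WT. In the Pls3 to Prrg1 run, 4930468A15Rik differed by 5.69 (4.22 to 7.17). Across all 10 higher runs the MD1 medians lay between 3.07 and 4.29, at or below the chromosome-wide median of 4.09 in 8 of them. H3K9me3 in the same cells had run medians between 3.67 and 3.94 in WT for all 10. In MD1 these H3K9me3 medians lay between −1.39 and 0.012 in 9 of the runs, and the Gm362 to 4930515L19Rik run kept 2.12.

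**Figure D3:**
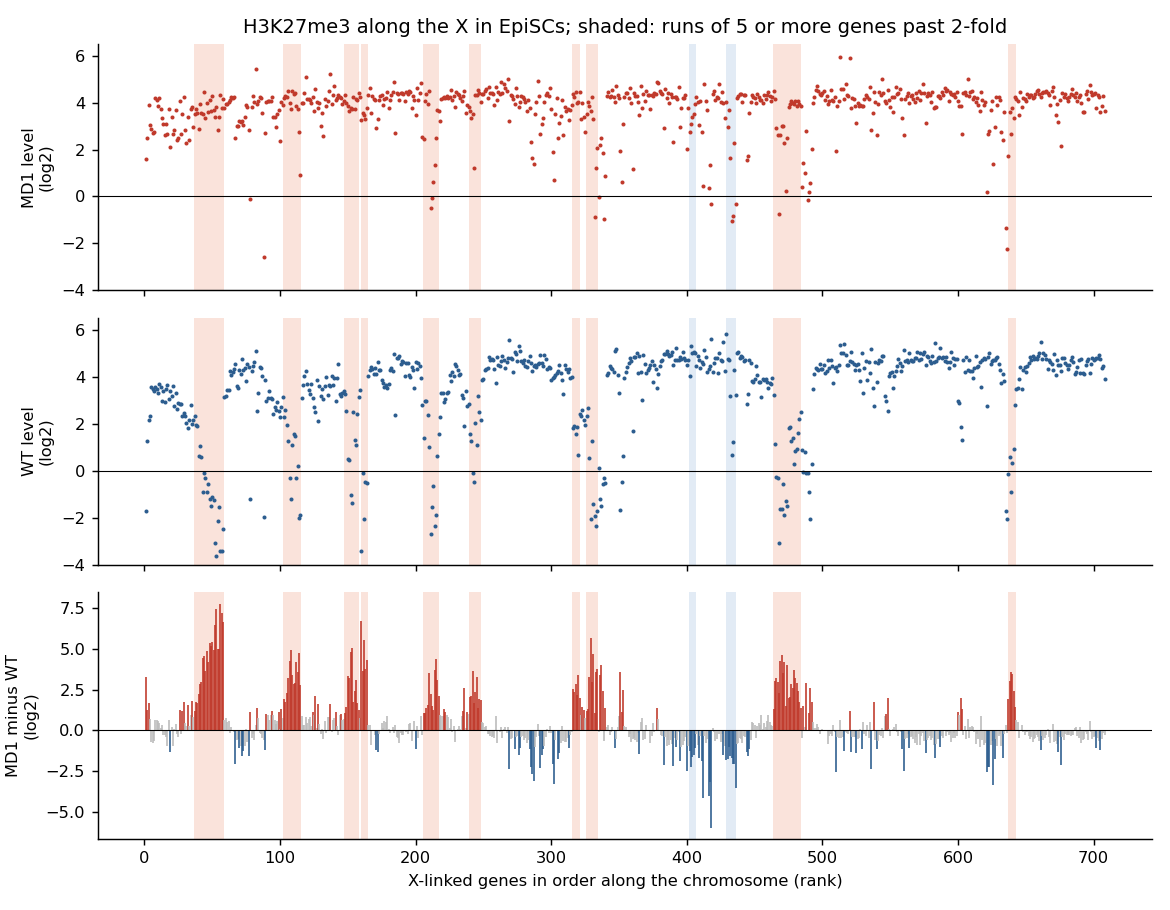
H3K27me3 level of every gene in MD1 EpiSCs (top) and WT EpiSCs (middle) and the MD1 minus WT change (bottom), in log2 units, with the 708 genes in chromosome order on the horizontal axis; shading marks the 10 runs of higher genes (pink) and the 2 runs of lower genes (blue). The stretches of low genes in WT are mostly higher in MD1, where the medians of the 10 higher runs lie between 3.07 and 4.29, and the lower genes appear mostly as single points or short groups under the MD1 band.

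Lower H3K27me3 in MD1 EpiSCs was found at the X inactivation centre, the region that produces Xist and its regulators. A run of 8 genes from Cdx4 to Ftx (X, 100516737 to 100819093) had a median of 1.95 in MD1 and 3.76 in WT. Xist, the RNA that coats the inactive X, had −1.04 in MD1 and 0.65 in WT, a change of −1.69 (−2.22 to −1.16). Its antisense gene Tsix, which overlaps it so that shared reads cannot be assigned, had 1.63 in MD1 and 3.19 in WT. The noncoding RNA genes Jpx and Ftx, activators of Xist, had −0.85 in MD1 and 1.21 in WT, and −0.32 in MD1 and 3.22 in WT. The Ftx change was −3.54 (−3.84 to −3.24), the largest of the 8. The homeobox gene Cdx4 at the edge had 4.04 in MD1 and 5.83 in WT, the highest WT level among all genes. Cdx4 lacked an input pair of at least 20 in both genotypes. Among the genes with such pairs the highest WT level was 5.12, at Efnb1. Near the run, Rlim, the E3 ligase gene that promotes Xist expression, had 4.28 in MD1 and 5.04 in WT, a change of −0.76.

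H3K9me3 did not accompany the mark here, with a median over the 8 genes of −1.43 in MD1 and −1.20 in WT. The other run of lower genes, from Foxo4 to Nlgn3, also had H3K9me3 below input, with −1.40 in MD1 and −0.19 in WT.

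Of the 10 measured members of the X inactivation centre list, 8 were at least 2-fold lower, against 11.3% of all genes, and 0 were higher. The eighth, Nap1l2, a nucleosome assembly protein gene, differed by −1.50 but its counting interval reached 0. In MEFs, whose libraries are separate, 1 of the 9 members with values was at least 2-fold lower and the median change was −0.22.

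**Figure D4:**
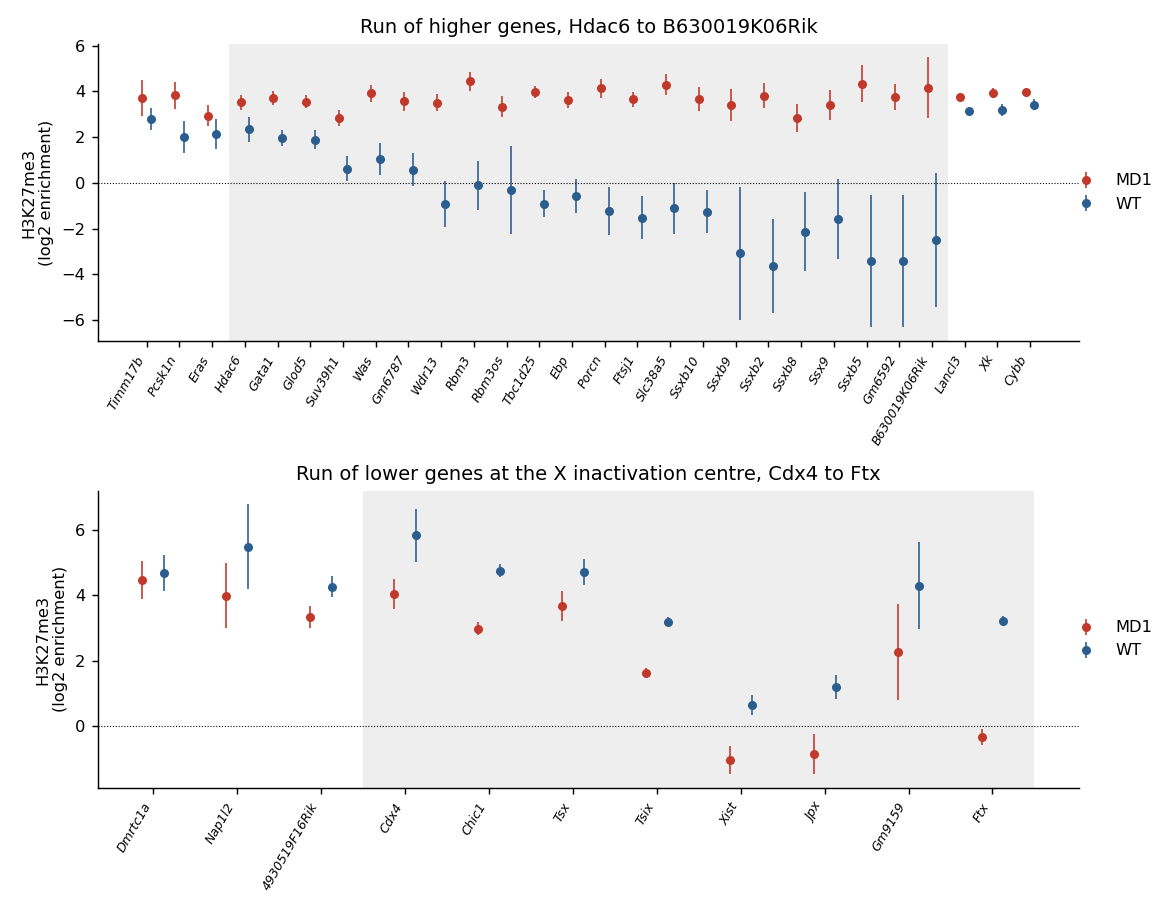
H3K27me3 levels (log2 enrichment over input) in MD1 EpiSCs (red, left point) and WT EpiSCs (blue, right point) for the genes of the longest higher run and of the X inactivation centre run (grey), with 3 genes before each run and 3 after the higher run; bars are 95% counting intervals. Across the upper run WT levels descend below 0 while MD1 levels stay between 2.85 and 4.44, and in the lower panel every gene of the run has its MD1 point under its WT point.

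Lower H3K27me3 was also found away from that centre, at single genes and in short groups. The largest negative difference among genes with an input pair of at least 20 in both genotypes was at Ogt, which encodes the O-GlcNAc transferase. Ogt (X, 98835390 to 98879690) had 0.45 in MD1 and 4.56 in WT, a change of −4.11 (−4.45 to −3.77). Pin4, a prolyl isomerase gene, had 0.36 in MD1 and 4.34 in WT, and Ercc6l, which encodes a DNA translocase of mitosis, had 1.33 in MD1 and 4.47 in WT. Rps4x (99380282 to 99383710), a gene of the small ribosomal subunit, had −0.33 in MD1 and 5.61 in WT, a change of −5.95 (−7.24 to −4.66), with a WT input pair of 12. Some genes near these 4 were well marked in MD1, while others nearby were also lower, as given below. Among the well marked, the chemokine receptor gene Cxcr3, which lay between the 4 genes, had 4.78 in MD1 and 5.15 in WT. Beyond Rps4x the gene Cited1 had 4.38 in MD1 and 4.22 in WT.

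The stretch from Slc7a3 to Rps4x (98274549 to 99383710), picked after its values were seen, held 12 lower genes among 19. A run of 5 of them, from Foxo4 to Nlgn3 (98449867 to 98516689), had a median of 3.38 in MD1 and 5.03 in WT. Slc7a3, a cationic amino acid transporter gene, had 2.04 in MD1 and 4.50 in WT. The TFIID subunit gene Taf1 had 2.77 in MD1 and 4.63 in WT, and Nono, a paraspeckle protein gene, had 3.03 in MD1 and 4.72 in WT. A second such stretch, from Plxnb3 to Fam3a (71002442 to 71638478), held 12 lower genes among 30. Ssr4, a subunit gene of the translocon-associated complex, had 1.39 in MD1 and 4.47 in WT. Its neighbour Idh3g, which encodes a subunit of isocitrate dehydrogenase, had 1.62 in MD1 and 4.27 in WT. Rpl10, of the large ribosomal subunit, had 0.69 in MD1 and 3.99 in WT, and Naa10, the catalytic subunit of an N-terminal acetyltransferase, had 2.66 in MD1 and 4.94 in WT. In the midst of these, L1cam (a neuronal adhesion gene, change −0.39) and Flna (filamin A, −0.14) were within 2-fold.

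Another group lay around Kdm5c, an H3K4 demethylase gene known to escape X inactivation, which had 0.19 in MD1 and 2.75 in WT, a change of −2.56 (−2.88 to −2.25). The adjacent noncoding gene Kantr had 2.65 in MD1 and 4.87 in WT. Shroom2, an actin-binding protein gene of 159978 bases, had 1.36 in MD1 and 4.73 in WT, a change of −3.37 (−3.52 to −3.22), which was the narrowest interval among the 12 lowest changes. Rpl36a, another ribosomal protein gene (131120193 to 131122601), had 1.92 in MD1 and 4.43 in WT.

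The upstream windows of 2 genes from each end of the range are shown, since the CpG dinucleotides there were counted for every gene with a window. They are the 250 bases before the RefSeq start of each gene (GRCm38.p6), with each CG in capitals.
Ogt, chrX:101639801-101640050, plus strand, 15 CpG: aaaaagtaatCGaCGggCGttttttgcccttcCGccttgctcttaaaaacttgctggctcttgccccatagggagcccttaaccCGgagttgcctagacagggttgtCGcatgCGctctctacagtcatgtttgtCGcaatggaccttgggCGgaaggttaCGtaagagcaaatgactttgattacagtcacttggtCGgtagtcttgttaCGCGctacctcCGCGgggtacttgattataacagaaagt
Rps4x, chrX:102189392-102189641, minus strand, 7 CpG: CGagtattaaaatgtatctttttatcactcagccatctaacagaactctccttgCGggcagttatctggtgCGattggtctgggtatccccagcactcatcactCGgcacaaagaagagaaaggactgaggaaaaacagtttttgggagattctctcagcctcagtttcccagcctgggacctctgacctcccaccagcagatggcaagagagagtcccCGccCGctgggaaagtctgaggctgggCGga
Slc38a5, chrX:8271131-8271380, plus strand, 8 CpG: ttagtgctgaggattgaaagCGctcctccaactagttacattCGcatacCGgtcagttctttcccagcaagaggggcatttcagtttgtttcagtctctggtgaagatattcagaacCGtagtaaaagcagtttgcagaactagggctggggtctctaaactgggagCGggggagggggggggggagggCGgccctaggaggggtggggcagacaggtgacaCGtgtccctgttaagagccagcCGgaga
Ssxb2, chrX:8461727-8461976, minus strand, 1 CpG: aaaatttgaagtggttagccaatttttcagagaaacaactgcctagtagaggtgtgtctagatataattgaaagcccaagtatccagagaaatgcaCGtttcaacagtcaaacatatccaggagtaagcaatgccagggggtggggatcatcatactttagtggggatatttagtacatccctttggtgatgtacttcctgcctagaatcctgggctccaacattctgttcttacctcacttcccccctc

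A window was matched by symbol for 594 of the 708 genes (83.9%), and where a gene had several the one richest in CG was used. The median was 7 CG for the 127 higher genes matched, 10 for the 67 lower genes and 10 for the 400 genes within 2-fold. Over all 594 matched genes the median was 9. Of all 1223 windows on the X, not limited to the richest window of a matched gene, 89.0% hold at least 1 CG, with a median of 5. By gene length, among the 236 shortest genes 65 were higher (27.5%) and 46 lower (19.5%), against 22.7% and 11.3% of all genes. Among the 236 of middle length 56 were higher and 24 lower. Among the 236 longest 40 were higher (16.9%) and 10 lower (4.2%). The counting interval excluded 0 for 53 of the 65 and 38 of the 46 among the shortest. Among the longest it did so for all 40 and all 10.

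Escape genes and genes of the X inactivation centre were among the few below input in MD1 EpiSCs. Of the 15 below input in MD1, 10 were below input in WT too. Kdm6a, an H3K27 demethylase gene that escapes X inactivation, had −2.57 in MD1, the lowest level there, and −1.97 in WT. Ddx3x, a further escape gene, had −0.090 in MD1 and −1.20 in WT, and the change of 1.11 (0.037 to 2.19) was measured under the input level and was 0.96 with a pseudocount of 0.1, which is within 2-fold. The membrane protein gene Tmem47 had −0.98 in MD1 and −0.32 in WT, and the rest were the odorant-binding protein gene Obp1a and little-studied genes such as Samt4. Fam47c, at −0.026 in MD1 and 0.096 in WT, had an MD1 ChIP pair of 4. The other 4 genes below input in MD1 were above it in WT, and they were Rps4x, Xist, Jpx and Ftx. At the opposite end, the highest MD1 level with an input pair of at least 20 in both genotypes was at Tro, the trophinin gene, with 5.03 in MD1 and 4.31 in WT.

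Genes of 19 lists were then followed. Counts are set beside the shares of all genes that were higher (22.7%) or lower (11.3%) and their median change of −0.069. The list names are loose. Counted members outside the named class include Wdr44 in the ubiquitin pathway, Naa10 in RNA binding and processing, and Fam3a among carbohydrate and nucleotide enzymes. Among 16 genes that X inactivation is known to silence, 2 were at least 2-fold higher and 1 lower, and the medians were 4.04 in MD1 and 4.37 in WT. The higher ones were Cul4b and Fmr1, the fragile X gene, with 4.43 in MD1 and 2.50 in WT, and the lower one was Hcfc1, a transcriptional coregulator gene, with 3.34 in MD1 and 4.47 in WT. Most silenced genes had a high level in both genotypes, such as the purine salvage gene Hprt, with 4.11 in MD1 and 3.54 in WT, and the glycolytic gene Pgk1, with 4.13 in MD1 and 3.79 in WT. Among 9 escape genes the medians were 1.54 in MD1 and 2.86 in WT, with 1 higher (Ddx3x) and 4 lower. The median change was −0.61, and −1.22 without the lowest 10% of genes. Beside Kdm5c these were Pbdc1, with 1.73 in MD1 and 3.29 in WT, its neighbour 5530601H04Rik, with 1.54 in MD1 and 2.86 in WT, and Utp14a, a ribosome biogenesis gene, with 2.92 in MD1 and 4.13 in WT.

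Of 8 genes of the ribosome and translation, 4 were lower (Rps4x, Rpl10, Ssr4 and Rpl36a) and 1 higher (Fmr1), with medians of 1.65 in MD1 and 4.20 in WT and a median change of −1.51. That median was −0.51 with input pairs of at least 20 in both genotypes, which leaves out Rps4x, Rpl10 and the termination factor gene Gspt2, and −2.51 without the lowest 10% of genes. Eif1ax, an initiation factor gene, had 4.08 in MD1 and 4.20 in WT. Chromatin regulators went both ways: of 25 genes, 6 were higher and 6 lower. The higher ones were Brwd3 (change 4.25), Hmgn5 (3.55), Uxt, a prefoldin-like cofactor (2.31), Suv39h1 (2.23), Stag2 (1.69) and Hdac6 (1.18). The lower ones were Ogt, Kdm5c, Taf1 (−1.87), Nap1l2, Hcfc1 (−1.13) and Msl3, of a histone acetyltransferase complex (−1.05). Rbbp7, a histone chaperone gene whose product is a Polycomb complex subunit, had 4.42 in MD1 and 4.31 in WT.

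RNA-binding and processing genes had 8 higher and 4 lower members among 24. Dkc1, the pseudouridine synthase gene dyskerin, had 4.43 in MD1 and 1.56 in WT, and Thoc2, of the mRNA export complex, had 3.73 in MD1 and 1.30 in WT. Zrsr2, a splicing factor gene, had 3.19 in MD1 and 4.52 in WT. In the ubiquitin pathway 6 of 22 genes were higher and 0 lower. Klhl13, a ligase adaptor gene, had 3.74 in MD1 and 0.19 in WT, Ube2a, a conjugating enzyme gene, had 4.25 in MD1 and 3.10 in WT, and Usp11, a deubiquitinase gene, had 3.68 in MD1 and 2.54 in WT. Of 20 carbohydrate and nucleotide enzyme genes 0 were higher and 3 lower (Ogt, Idh3g and Fam3a), or 1 higher and 2 lower once centred on the genes poor in H3K9me3. The lower share of this list and the higher share of the ubiquitin list were both near those of all genes. Among 19 mitochondrial genes 3 were higher, namely the thioesterase gene Acot9, the cristae component gene Apool and the outer membrane protein gene Fundc2, with changes of 3.48, 2.58 and 2.01, and 2 were lower, Idh3g and the haem lyase gene Hccs (−1.17).

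Developmental regulators had 5 higher genes and 1 lower among 21. Beside Porcn, Tbx22 and Gata1 the higher ones were Zfp711, a zinc finger gene, with 3.84 in MD1 and 0.91 in WT, and Elk1, a serum response cofactor, with 4.29 in MD1 and 2.57 in WT. Cdx4 was the lower one. Of 31 neuronal genes 8 were higher and 3 lower. Slitrk4, a synaptic adhesion gene, had 3.52 in MD1 and −0.10 in WT, the protocadherin gene Pcdh11x had 2.78 in MD1 and −0.12 in WT, and Gria3, an AMPA receptor subunit gene, had 4.25 in MD1 and 2.49 in WT. The lower ones were the potassium channel subunit gene Kcne1l, with 3.80 in MD1 and 5.46 in WT, the synaptophysin gene Syp, with 2.11 in MD1 and 3.41 in WT, and Nlgn3, a neuroligin gene, with 3.95 in MD1 and 5.03 in WT.

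Gene families grouped by symbol varied among themselves. Of 10 Rhox genes, homeobox genes of reproductive tissues, 2 were higher and 0 lower, with medians of 4.22 in MD1 and 3.66 in WT. Of 8 zinc finger genes 4 were higher and 0 lower: Zfp300, Zfp449 (4.35), Zfp182 (4.28) and Zfp711. The median change of this list was 1.76, and 0.10 without the lowest 10% of genes. The 8 MAGE genes split into 3 higher (Mageb18, Mageb16 and Magea8, with changes of 2.45, 2.42 and 1.90) and 2 lower (Maged1 and Magee1, −1.44 and −1.16), which were within 2-fold once centred on the genes poor in H3K9me3. The single measured Xlr family gene, Xlr, had 4.51 in MD1 and 1.01 in WT. Among 9 Bex and Tceal genes 1 was higher and 2 lower, and the counting interval excluded 0 for 1 of the lower genes alone. Among 12 solute carriers 2 were higher and 1 lower (Slc38a5 and the UDP-galactose transporter gene Slc35a2 higher, Slc7a3 lower), and among 19 G protein-coupled receptor and related genes 2 were higher and 1 lower (Gpr165 and the serotonin receptor gene Htr2c higher, the pigment cell receptor gene Gpr143 lower).

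**Figure D5:**
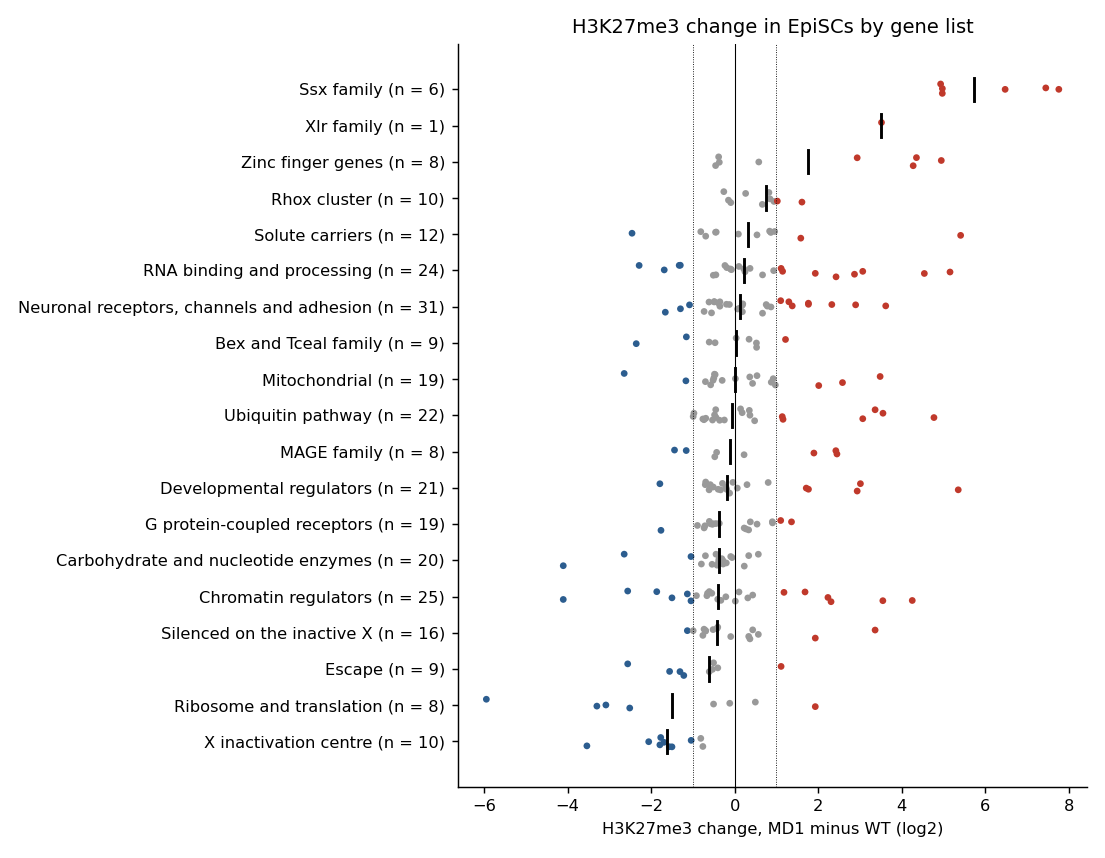
H3K27me3 change in EpiSCs (MD1 minus WT, log2) for every measured gene of 19 lists, sorted by the list's median (black bar), with red points at least 2-fold higher, blue points at least 2-fold lower and grey points within 2-fold. The Ssx genes lie wholly to the right, from 4.93 to 7.77, the genes of the X inactivation centre wholly to the left of 0, from −3.54 to −0.76, and most other lists straddle it.

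The sign of a list's median depended on the scaling for lists near 0. Once centred on the genes poor in H3K9me3, the medians of 7 lists that were negative as deposited were positive, from 0.051 for the silenced genes to 0.41 for the ubiquitin pathway. The median stayed negative for the X inactivation centre, with 7 of 10 genes lower, for ribosome and translation, with 4 of 8 lower, and for the escape genes, with 2 of 9 lower and a median of −0.14. With the same centring 6 of 10 Rhox genes and 12 of 31 neuronal genes were at least 2-fold higher.

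Some genes had a value in 1 genotype alone and entered no comparison. The 28 with a value in MD1 alone had a median level of 3.46, a median input pair of 12 and a median length of 5060 bases. The 11 with a value in WT alone had a median of 2.56, an input pair of 7 and a length of 3404 bases. Genes with a value in WT alone included Rpl39, of the large ribosomal subunit, at 3.02, and Slc25a5, an adenine nucleotide carrier gene, at 2.75. Both belong to lists described above and were not counted there.

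H3K27me3 differed between the same genotypes in MEFs over partly the same genes. Of the 698 genes with values in both cell types, 142 were at least 2-fold higher in MD1 MEFs (20.3%) and 170 at least 2-fold lower (24.4%), and no library is shared between the cell types. Of the 160 of these higher in EpiSCs, 92 were higher in MEFs (57.5%, and 64.8% of the 142) and 20 were lower. Of the 77 lower in EpiSCs, 43 were lower in MEFs (55.8%, and 25.3% of the 170) and 3 were higher. Across genes the EpiSC and MEF changes had Pearson's r of 0.388 and Spearman's rho of 0.466. The higher runs of EpiSCs had positive MEF median changes in 9 of 10 cases, from 0.89 to 1.72. The exception was Atp1b4 to Sh2d1a, the run with Cul4b, Xiap and Stag2, where 7 of 11 genes were at least 2-fold lower in MEFs and the median change was −2.75. Most genes of the silenced list also differed in their call between the cell types: at least 2-fold lower were 15 of its 16 genes in MEFs, with a median change of −3.19, against 1 of 16 in EpiSCs, with a median of −0.41 (0 of 16 once centred on the genes poor in H3K9me3). The MEF libraries were not centred and no counting intervals were made for them, so all MEF counts are for the values as deposited. The difference between the cell types was not tested, since each has 1 library a genotype. The cell types also differ in embryonic day.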

How the data were processed

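H3K9me3 and H3K27me3 ChIP libraries and input libraries of female EpiSCs and MEFs were sequenced, with 1 library for each of 12 groups (8 ChIP and 4 input). Reads were processed with cutadapt, BWA and SAMtools on mm9, per the submitters' processing notes. Of versions, counting rule, pseudocount and scaling nothing is stated in the sources used here. For each X-linked gene the authors deposited a log2 enrichment value. The change was taken as MD1 minus WT, and a gene was called higher or lower at 2-fold. The values equalled a whole-number ratio multiplied by a library constant for 100% of genes (tolerance 1e-12, denominators up to 30000), and under 1% matched when values were moved slightly or read as natural logs. These pairs are the smallest possible, so read counts may be multiples of them or include a pseudocount. Counting intervals (95%, normal approximation) came from them, and the recovery was tested on simulated data.

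Coordinates are mm9, counted from 1, and the deposited starts count from 0. Among the members, 89 overlap another. Genes named were the 12 largest differences each way (input pair at least 20 in both genotypes, interval excluding 0), list members past 2-fold or at a list's extremes, run ends with up to 4 genes inside, the extremes of either genotype, and some neighbours named after their values were seen. The members, lists and rules were chosen with earlier results of these data known. Alternatives were other centring, a pseudocount of 0.1, minimum input pairs, other definitions of H3K9me3-rich genes, leaving out the lowest 10% of genes and, added after the data were seen, leaving out overlapping genes. Sequences are from RefSeq (GRCm38.p6). Python 3.11.15, numpy 2.4.6, pandas 2.3.3, scipy 1.17.1 and matplotlib 3.10.9 were used.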

Additional observations from a re-analysis of the deposited data

Results flagged for a closer look

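At 14 of the named genes H3K27me3 was past 2-fold in opposite directions in MD1 against WT in EpiSCs and in MEFs. Each cell type has 1 library a genotype, so the difference between them was not tested. The MEFs also came from a later embryonic day. Values are MD1 minus WT changes on the log2 scale, with the EpiSC value before the MEF value. Tbc1d25, a Rab regulator gene, had 4.88 in EpiSCs and −1.08 in MEFs. The chromatin genes Brwd3 (4.25 in EpiSCs and −2.26 in MEFs), Uxt (2.31 and −1.71), Suv39h1 (2.23 and −3.42) and Stag2 (1.69 and −3.19) were higher in EpiSCs and lower in MEFs. So were the ubiquitin and apoptosis genes Cul4b (3.36 and −2.75), Xiap (3.07 and −3.90), Ube2a (1.16 and −2.53) and Usp11 (1.14 and −1.97). RNA-binding genes in this set were Thoc2 (2.43 and −3.55), Fmr1 (1.93 and −1.62) and Ddx3x (1.11 and −1.98), the last below input in both EpiSC genotypes. Slc35a2, a UDP-galactose transporter gene, had 1.58 in EpiSCs and −4.26 in MEFs. The potassium channel subunit gene Kcne1l went the other way, with −1.66 in EpiSCs and 2.10 in MEFs.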

How the results depend on the processing

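No paired analysis was possible because each genotype has 1 library. Centring both libraries on all genes moved every change by 0.103 and the median of the genes poor in H3K9me3 to −0.38, against −0.48 as deposited, with 176 higher and 70 lower genes. Centring on the genes poor in H3K9me3 moved every change by 0.465: 224 genes were then higher and 46 lower, the overall median was 0.40, that of the rich genes 0.93 and that of the others −0.014. All 161 higher genes kept their call, as did 46 of the 80 lower genes. Input pairs of at least 20 in both genotypes left 554 of the 708 genes, of which 118 were higher and 51 lower. Without the lowest 10% of genes 103 were higher, the interquartile range was 0.57 in MD1 and 1.30 in WT, and the median of the rich genes was 0.28. With rich genes defined in WT MEFs the medians were 1.58 and −0.20 in the rich and other genes, a difference of 1.78 against 0.95 as reported. With a 4-fold threshold for rich genes the median was 0.85 and the difference 1.27. A pseudocount of 0.1 and leaving out overlapping genes (150 higher, 72 lower) kept the 2 counts of all genes within 1.5 times. The medians over all, rich and other genes and the interquartile ranges stayed within 95% binomial bounds on the ranks of genes. Those bounds are not counting intervals, and they treat genes as independent, which neighbouring genes are not. Overlapping genes were not left out of the lists. With the pseudocount the Ddx3x change was 0.96, so that 0 of 9 escape genes were higher, and the Xlr change was 3.44 against 3.50. The pseudocount also put 6030498E09Rik (4.758) and Wdr44 (4.302) just under the lower bounds of their counting intervals, 4.762 and 4.303. Of 99 named genes followed, 33 left their counting interval when centred on the genes poor in H3K9me3. No result reversed its sign among the called values. Centring adds the same amount to every change, and the filters and other definitions change which genes are compared. What else lay behind these movements was not tested. Counting error limits short genes most, and spread between cultures was not measured.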
